A study of Sparassis latifolia with 15 samples.

Results

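The genes described here are 2 membrane transporters of the edible mushroom Sparassis latifolia, chosen by the study from its integration of chromatin and RNA data. D1 (Gglean000619) is described as an MFS general substrate transporter, and D6 (Gglean005508) as an uncharacterized transporter. They are 2 of the 13 genes that the study listed as lower, among 30 genes listed in all, and 2 of the 11118 genes counted in both deposited RNA-seq tables. The study chose them because their RNA and an open chromatin peak were lower in both of its comparisons on these same libraries, so what follows for those comparisons is a description and no independent evidence of direction. The study also measured the listed genes by qRT-PCR, and D1 and D6 were not among those it named as departing from the sequencing. Those qRT-PCR values were normalized to the gene GAPDH, whose own RNA varied between these libraries, as given below. The qRT-PCR values are not part of the data used here.

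Samples came from 3 groups of strain SP-C grown on pine sawdust substrate in cultivation bags, and every group carries the same strain label. Primordia (P) formed when dark-grown mycelium was kept under a daily light and dark cycle, and carry the label day 42. Light-induced mycelium (L) was dark-grown mycelium exposed to white LED light for an hour, and carries the label day 30, although the methods describe the exposure as following directly on the dark culture. Dark mycelium (D) never saw light and carries the label day 28. RNA-seq had 3 biological replicates per group and ATAC-seq had 2. P therefore differs from D in age, light and tissue at once, and these cannot be told apart. By the day labels, L also differs from D in age as well as light. P differs from L in age, light schedule and tissue. In whole tissue, fewer cells of a kind and less RNA per cell cannot be told apart either.

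Transporters of the major facilitator superfamily (MFS) are single-chain carriers that span the membrane with a bundle of helices. They move sugars, organic acids, amino acids, drugs and other small solutes along or against a gradient, without hydrolysing ATP themselves. Fungi carry many of them, for uptake of nutrients from the substrate and for export of toxic or secreted compounds. The description of D1 names the family and no substrate. The study's annotation places D6 under carboxylic acid transport and quinolinic acid transmembrane transport, and in Saccharomyces cerevisiae a carrier of this kind takes up nicotinic and quinolinic acid. The substrates of D1 and D6 in S. latifolia were not measured.

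The 9 RNA-seq libraries held between 20798173 and 27706995 counts over the 11118 genes in both tables. Sequencing was paired-end, and the reads of a gene mean its deposited counts here. Levels are given as CPM, the reads of a gene per 1e6 reads of its library after scaling of the library totals. The hydrophobin U10 (Gglean005727, fruiting body protein SC4), a coat protein of aerial fungal structures, is given for orientation only. The study listed it as higher in P and L against D on these same libraries, so its levels cannot check the labels. It stood at 1686, 14883 and 1673 CPM in P, at 368, 5105 and 2293 CPM in L, and at 63.1, 35.1 and 231 CPM in D. Every library of P and L was above every library of D. Light replicates 2 and 3 were above primordia replicates 1 and 3, so U10 did not separate P from L. Light replicate 2 lay farther from dark mycelium over all genes than the other L libraries. Its Spearman correlation with the mean of D was 0.864, against 0.948 and 0.949 for light replicates 1 and 3 and 0.796 to 0.841 for the P libraries, over the 7917 genes that averaged 10 CPM or more.

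D1 was lowest in primordia and highest in dark mycelium, with light mycelium between. In P it stood at 4.32, 43.0 and 16.7 CPM in replicates 1, 2 and 3, from 90, 1024 and 394 reads. In L it stood at 219, 62.5 and 107 CPM, and in D at 396, 252 and 345 CPM. No library of P reached the lowest library of L, and no library of L reached the lowest library of D. The group means were 21.4 ± 19.8 CPM in P, 129 ± 80.5 CPM in L and 331 ± 72.8 CPM in D (SD, n = 3 per group).

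D6 was low in every primordium library, but light mycelium was split. In P it stood at 9.45, 11.98 and 14.9 CPM in replicates 1, 2 and 3, from 197, 285 and 350 reads. In L it stood at 258, 10.0 and 45.7 CPM, and in D at 257, 103 and 88.6 CPM. Light replicate 1 was at the level of the highest D library, light replicate 2 lay inside the range of P, and light replicate 3 lay between P and D. The group means were 12.1 ± 2.71 CPM in P, 104 ± 134 CPM in L and 149 ± 93.2 CPM in D (SD, n = 3 per group). Neither transporter was at 0 in primordia, where the lowest library still had 90 reads of D1 and 197 of D6.

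**Figure D1:**
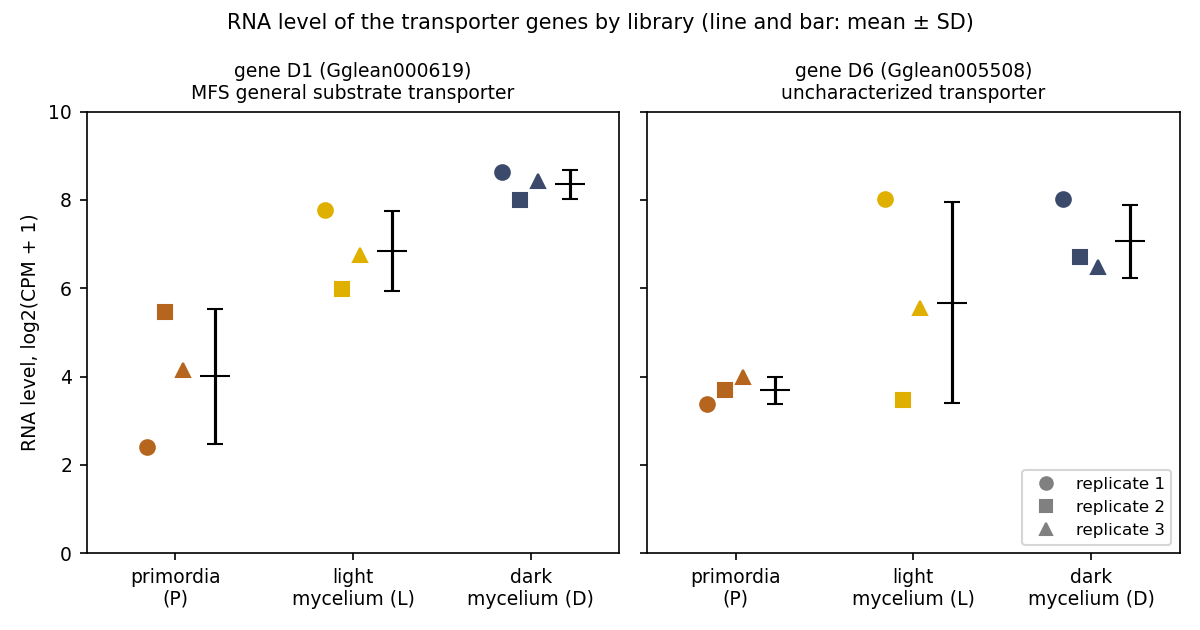
RNA level as log2(CPM + 1) of genes D1 and D6 in each library of primordia (P), light mycelium (L) and dark mycelium (D), with marker shapes for replicate numbers and the mean ± SD of the 3 libraries beside them. D1 falls into separate ranges in P, L and D, whereas the L libraries of D6 run between 10.0 and 258 CPM, from the range of P to that of D.

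In P vs. D, both transporters fell. D1 was 15.2-fold lower in primordia than in dark mycelium (log2 fold change -3.93, SE 0.78, edgeR adjusted p = 0.0414, by the Benjamini-Hochberg method over 10606 genes). D6 was 12.3-fold lower (log2 fold change -3.62, SE 0.48, edgeR adjusted p = 0.0104). Genes count as called here where the adjusted p did not exceed 0.05 and the fold change was above 1.2. Of the genes tested, 1.97% were called lower by edgeR and 6.08% by DESeq2, which also called D1 and D6. The groups did not overlap for either gene, as was the case, with P below D, for 12.5% of the 11118 genes counted in both tables. By log2 fold change, D1 ranked 34 and D6 ranked 50 from the lowest of the 10606 genes. The study selected the genes on this contrast, so nothing is read from these shares and ranks.

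The size of the fall of D1 depended on primordia replicates, which ranged over 9.97-fold in P. Its log2 fold change was -4.98 (edgeR adjusted p = 0.0116) without primordia replicate 2, the highest of the P libraries, and -3.48 (adjusted p = 0.0429) without primordia replicate 1, the lowest. Its call ended when any D library was left out (edgeR adjusted p = 0.133, 0.0809 and 0.105 without dark replicates 1, 2 and 3) and without primordia replicate 3 (adjusted p = 0.0916), with log2 fold changes from -4.09 to -3.80. The call of D6 ended without primordia replicate 1 (log2 fold change -3.48, edgeR adjusted p = 0.0548) and when all 9 libraries shared a single fit (adjusted p = 0.0745). Without dark replicate 1, the highest D library of D6, its log2 fold change was -2.98, and it was still called (edgeR adjusted p = 0.0321).

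In L vs. D, neither transporter passed the test in this re-analysis. The study, with DESeq2 at the same thresholds, counted both as lower there. Over the whole comparison, too, the study counted more genes as lower than DESeq2 called here. The reason for the difference was not tested. D1 had a log2 fold change of -1.35 (SE 0.46, edgeR adjusted p = 0.327 over 10627 genes), although its L and D libraries did not overlap. Such a gap, with L below D, was found for 9.22% of the 11118 genes. D6 had a log2 fold change of -0.52 (SE 1.04, edgeR adjusted p = 0.877), an error larger than the value. DESeq2 did not call either gene (adjusted p = 0.0874 for D1 and 0.886 for D6). By edgeR 0.00% of the genes tested were called lower in L vs. D, at a count of 0, whereas 597 genes had a lower level at an unadjusted p under 0.05, and DESeq2 called 215 lower, or 2.02%.

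Single light libraries decided the value of D6. Without light replicate 1 its log2 fold change in L vs. D was -2.42 (SE 0.78, edgeR adjusted p = 0.263), and without light replicate 2 it was 0.02 (SE 0.76, adjusted p = 0.993). Without dark replicate 1 it was 0.13 (edgeR adjusted p = 0.990), so the direction itself turned. For D1, leaving out light replicate 1 gave -1.96, and leaving out light replicate 2 gave -1.02 (edgeR adjusted p = 0.107 and 0.403), and the direction stayed negative in every alternative that was run. Counting error was small beside these gaps. Light replicate 2 had 283 reads of D6, with a 95% Poisson interval of 8.90 to 11.3 CPM, and the interval in light replicate 3 was 43.1 to 48.4 CPM. Such intervals cover counting error only.

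The contrast of primordia with light mycelium was not itself a criterion of the choice. It is not free of it, however, since the genes were chosen for low levels in these P and L libraries against D. In P vs. L, D1 had a log2 fold change of -2.60 (SE 0.75, edgeR adjusted p = 0.287 over 10701 genes) and D6 of -3.11 (SE 0.99, adjusted p = 0.334), so neither was called. DESeq2 called both lower (log2 fold change -2.59 for D1 and -3.12 for D6, adjusted p = 0.0141 and 0.0176). Of all genes tested, edgeR called 0.0187% lower, which is 2 genes, and DESeq2 called 1.56% lower. The P and L libraries of D1 did not overlap, with P below L, as for 5.89% of the 11118 genes, whereas light replicate 2 of D6 lay among the P libraries. Leaving out light replicate 1 moved D6 to -1.20 and D1 to -1.99 (edgeR adjusted p = 0.674 and 0.597). Leaving out primordia replicate 2 moved D1 to -3.62 (edgeR adjusted p = 0.0718). Deviations from the group means correlated positively between same-numbered P and L libraries, though also between some with unlike numbers, so a pairing is not known. As an alternative, replicate number was set as a block in a fit of these 6 libraries. There edgeR gave -2.91 for D1 and -2.00 for D6 (adjusted p = 0.403 and 0.530), and neither was called. DESeq2 with this block called D1 (-2.89, adjusted p = 0.0032) and no longer called D6 (-1.95, adjusted p = 0.122). With the block over all 9 libraries, edgeR called 1 gene in either direction instead of 4, with -2.65 for D1 and -2.15 for D6 (adjusted p = 0.475 and 0.540).

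**Figure D2:**
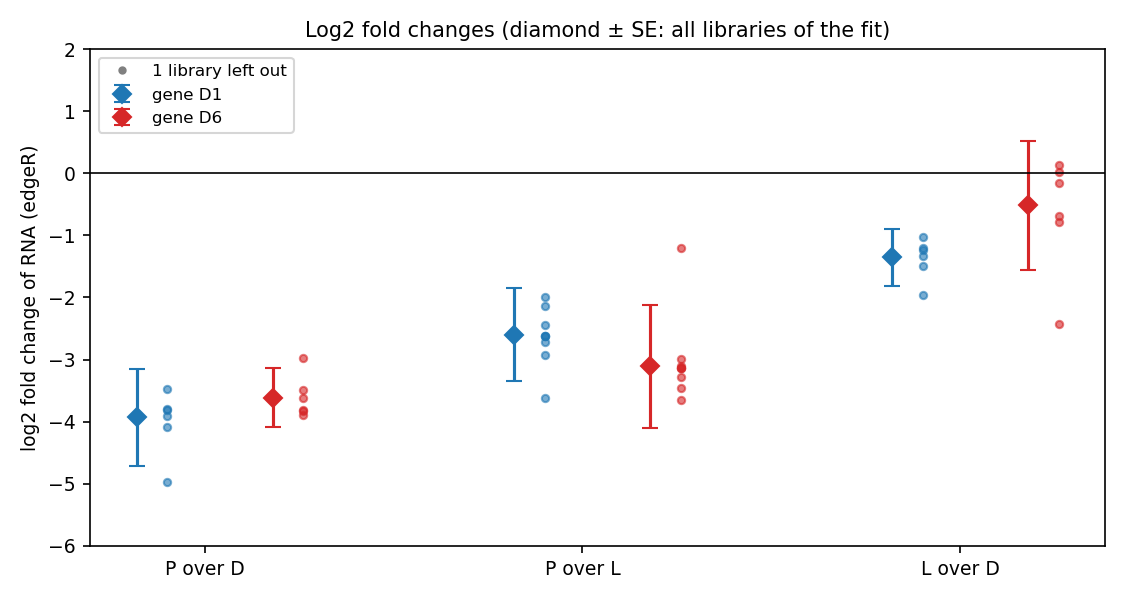
Log2 fold changes of genes D1 and D6 from edgeR in 3 contrasts, as diamonds with the SE, and as dots when each library of the fit was left out in turn. In P over D every dot lies at or below -2.98, whereas for D6 in L over D the dots run from -2.42 to 0.13.

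The spread within groups differed between the transporters. In primordia, the SD of log2(CPM + 1) was 1.53 for D1, above 97.2% of the 7917 genes, and 0.30 for D6, above 35.6% of them, where the median gene had 0.40. In light mycelium it was 2.28 for D6, above 99.6% of the genes, and 0.90 for D1, above 93.0%, at a median of 0.25. In dark mycelium it was 0.83 for D6, above 96.1% of the genes, and 0.33 for D1, above 69.9%, at a median of 0.23, so that D6 had a wide spread in both L and D. The libraries of D6 thus ranged over 1.57-fold in P, 25.7-fold in L and 2.90-fold in D, and those of D1 over 9.97-fold, 3.50-fold and 1.57-fold.

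Set against its own mean in dark mycelium, each gene can be followed through the same libraries. Light replicate 1 held 66.1% of the D mean for D1 and 172% for D6, light replicate 2 held 18.9% and 6.71%, and light replicate 3 held 32.4% and 30.6%. Both genes thus had the same order of L libraries. Primordia replicate 1 held 1.30% for D1 and 6.32% for D6, primordia replicate 2 held 12.99% and 8.01%, and primordia replicate 3 held 5.05% and 9.95%, so that the lowest library was shared and the highest was not. Over the 9 libraries the log2(CPM + 1) of D1 and D6 had a Pearson r of 0.848 and a Spearman rho of 0.817. These points share their groups and libraries, so the values describe likeness and carry no p.

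**Figure D3:**
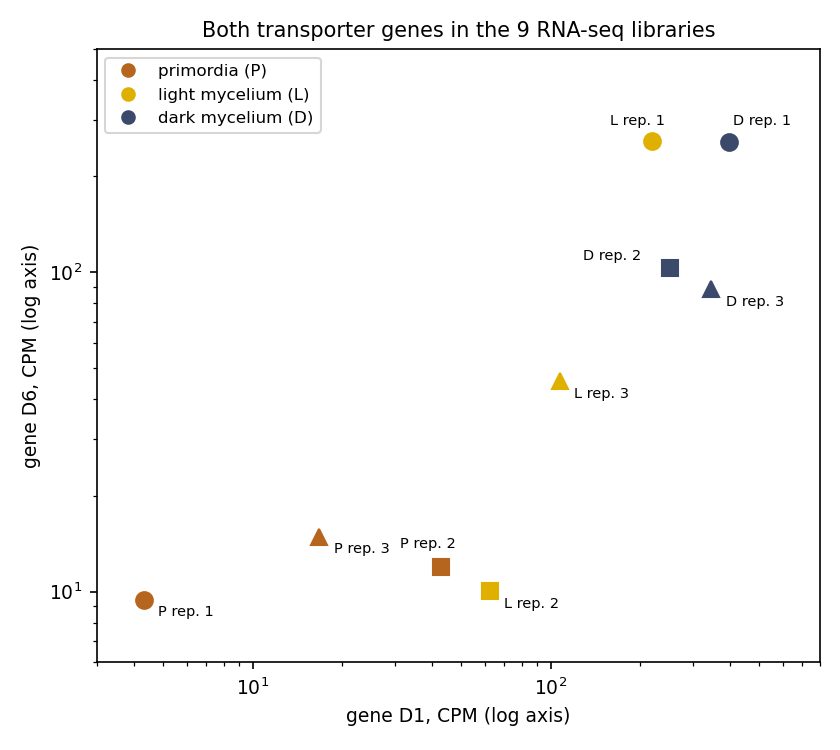
CPM of D6 against CPM of D1, both on log axes, with 1 point for each of the 9 RNA-seq libraries, coloured by group. The P libraries lie at the low end of both axes and the D libraries at the high end, and of the L libraries replicate 1 lies near D and replicate 2 near P.

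Other genes listed as lower had light replicates 1 and 2 in the same places as D1 and D6. Leaving out the transporters, light replicate 1 was the highest L library for 10 of the 11 genes, and light replicate 2 was the lowest for 8 of them, counts made after the values of D1 and D6 had been seen. Over all 7917 genes, light replicate 1 was the highest for 39.0%, and light replicate 2 was the lowest for 39.9%. GAPDH (Gglean007906), a glycolytic enzyme often used as a steady reference, stood at 2864, 821 and 1819 CPM in L and followed the same order, with 4374, 647 and 2250 CPM in P and 3361, 2506 and 2069 CPM in D. U10 ran the other way in L, where light replicate 2 was the highest. The part of these library differences in the values of D1 and D6 was not tested.

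Among the 13 genes listed as lower, the transporters lay at the low end in the contrasts with primordia, and D6 near the other end in light against dark mycelium. In P vs. D they ranked 1 (D1) and 3 (D6) from the lowest log2 fold change, and in P vs. L they ranked 3 and 1, but in L vs. D they ranked 6 and 12. The median log2 fold change of the 13 genes was -3.09 in P vs. D, -0.95 in P vs. L and -1.09 in L vs. D, beside 0.07, 0.02 and 0.02 over all genes tested. By edgeR 6 of the 13 were called lower in P vs. D, D1 and D6 among them, and 0 in P vs. L and 0 in L vs. D, whereas DESeq2 called 11, 4 and 5. Over all genes tested, edgeR called 1.97%, 0.0187% and 0.00% lower in these contrasts, and DESeq2 called 6.08%, 1.56% and 2.02%. The 17 genes listed as higher had median log2 fold changes of 4.24 in P vs. D, 1.23 in P vs. L and 3.01 in L vs. D. Of them, edgeR called 11, 0 and 0 higher, whereas DESeq2 called 14, 2 and 12. U10 is in neither count for P vs. D (edgeR adjusted p = 0.0615), where DESeq2 gave it no adjusted p. Over all genes tested, edgeR called 1.33%, 0.0187% and 0.00% higher. DESeq2 called 5.13% higher in P vs. D, 155 of 10686 genes in P vs. L and 1.96% in L vs. D. The study chose both lists on the P and L libraries against shared D libraries, and whether D1 or D6 differs from the other listed genes was not tested.

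**Figure D4:**
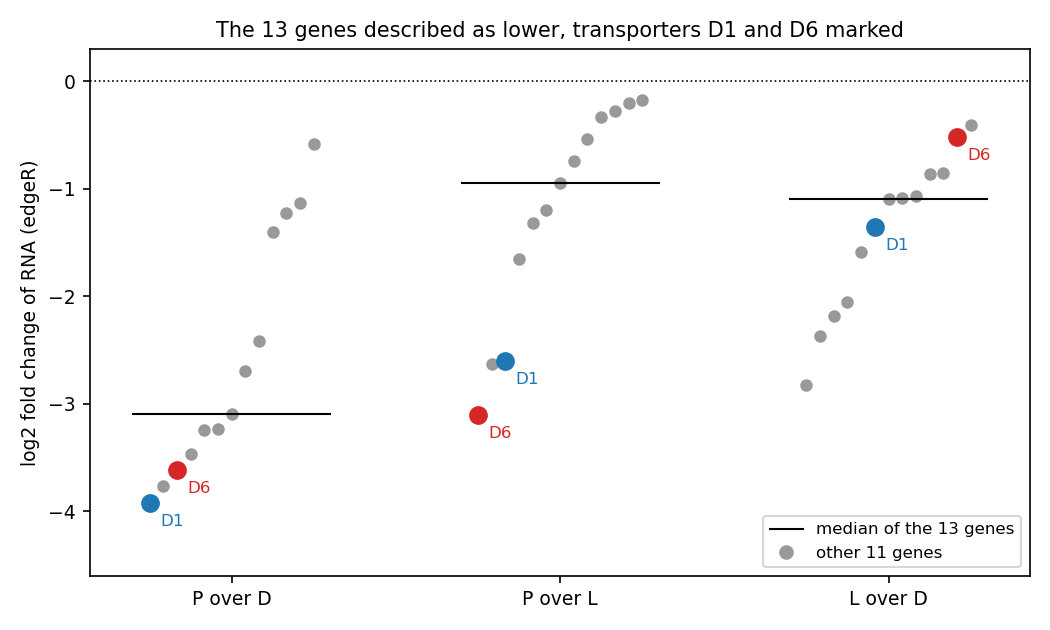
Log2 fold changes from edgeR of the 13 genes listed as lower in 3 contrasts, sorted within each contrast, with the median as a line and D1 and D6 marked. D1 (-3.93) and D6 (-3.62) lie near the low end in P over D, and D6 (-0.52) lies near the high end in L over D.

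Of the 30 listed genes, 2 others are described by transport. U3 (Gglean002700) is described as the iron-sulfur clusters transporter ATM1, which in yeast is an ATP-driven exporter of the mitochondrial inner membrane. It stood at 414, 294 and 612 CPM in P, at 220, 306 and 395 CPM in L and at 12.8, 84.2 and 6.14 CPM in D. In P vs. D its log2 fold change was 3.68 (SE 0.97, edgeR adjusted p = 0.0935, DESeq2 adjusted p = 0.000196), so the tools differed on its call. In L vs. D it was 3.16 (edgeR adjusted p = 0.292). U11 (Gglean007619), gluconate transport inducer 1, is known from fission yeast as a regulator that switches on gluconate uptake and is not itself a carrier. It stood at 205, 320 and 87.3 CPM in P, at 44.9, 99.3 and 62.2 CPM in L and at 3.54, 7.65 and 5.81 CPM in D. U11 rose in primordia over dark mycelium (log2 fold change 5.19, SE 0.58, edgeR adjusted p = 0.0079), and edgeR did not call it in light over dark mycelium (log2 fold change 3.60, adjusted p = 0.0895). DESeq2 called U3 and U11 higher in both contrasts. Over all genes tested, 1.33% were called higher by edgeR and 5.13% by DESeq2 in P vs. D, and 0.00% and 1.96% in L vs. D. In P vs. D the listed transport genes thus held 2 that fell (D1 and D6), 1 that rose (U11) and 1 that edgeR did not call (U3).

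The genes most like each transporter were ranked by the Pearson r of log2(CPM + 1) over the 9 RNA-seq libraries, among the 7916 other genes that averaged 10 CPM or more. For D6 the most similar gene was Gglean011516 (r = 0.994, Spearman rho 0.95), which stood at 4.08, 5.50 and 8.71 CPM in P, at 135, 6.31 and 27.5 CPM in L and at 153, 63.6 and 70.5 CPM in D. It repeats the split of the L libraries of D6. For D1 it was Gglean003102 (r = 0.984, Spearman rho 0.95), whose levels ran over a narrower range, with 57.7, 84.5 and 69.3 CPM in P, 126, 92.0 and 94.9 CPM in L and 136, 116 and 117 CPM in D. Neither ID comes with a description in the tables used here. An r above 0.9 was reached by 167 genes with D6, or 2.11%, and by 85 genes with D1, or 1.07%. Of the listed genes, D2 (a fatty acid desaturase, which adds double bonds to lipids, r = 0.948) and D7 (alpha/beta hydrolase, r = 0.942) were the most similar to D6. D7 (r = 0.898) and D10 (lactate 2-monooxygenase, r = 0.881) were the most similar to D1. D6 ranked 223 among the genes most like D1, and D1 ranked 332 among those most like D6, so many genes of this table follow each transporter more closely than the other transporter does. GAPDH had an r of 0.0081 with D1 and 0.471 with D6.

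ATAC-seq inserts sequencing adapters into accessible DNA, so that peaks of reads mark open chromatin. The 4 deposited lists hold regions lost or gained in P vs. D and L vs. D, each with a score whose unit the sources do not state and with no value for single libraries, so no replicate error can be given. The comparisons share the D libraries. The peak that the study assigned to D1 lies on contig 1 of the SP-C assembly from 1816742 to 1817237, spans 496 bp and was annotated at the end of the transcript. It is in the lost lists of both P vs. D and L vs. D, with the same start, end and score (4.17). By score it ranked 1003 of 1912 lost peaks in P vs. D and 219 of 273 in L vs. D, where the median scores were 4.38 and 11.6.

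The peak that the study assigned to D6 was annotated in the promoter and lies on contig 27. It runs from 88450 to 89940 in the list lost in P vs. D (1491 bp) and from 88451 to 89921 in the list lost in L vs. D (1471 bp), again with the same score in both (9.21). It is wider than 87.7% of the peaks listed as lost in primordia, whose median width was 490 bp, and than 75.1% of those listed as lost in light mycelium, whose median was 739 bp. By score it ranked 583 of 1912 and 162 of 273. Since a peak keeps the same score in both comparisons, the score is not read as the size of a loss, and the loss at D6 in L cannot be set against that in P. The loss in L vs. D was listed although the RNA of D6 did not pass the test there in this re-analysis, whereas the study counted its RNA as lower too. The RNA and ATAC-seq libraries were separate samples, so it is not known whether the culture of light replicate 1 had this peak.

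Other differential peaks lay near both transporters. Within 100 kb to each side of the D1 peak, 3 peaks were lost and 5 gained in P vs. D, and 1 was lost and 2 gained in L vs. D, the assigned peak included. The nearest other lost peak in P vs. D lay 5.78 kb away, from 1823022 to 1823386, and the nearest gained peak lay 28.5 kb away. In L vs. D the nearest other lost peak lay 178 kb away, outside this window, so that the D1 peak was the only loss there.

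Around the D6 peak, 5 peaks were lost and 6 gained in P vs. D, and 2 were lost and 0 gained in L vs. D. This window is cut on the left, since the contig begins 89.2 kb before the centre of the peak. In P vs. D a gained peak of 4196 bp with a score of 77.3 lay 7.60 kb from the D6 peak, from 97539 to 101734, closer than the nearest other lost peak at 19.2 kb. The nearest other loss in L vs. D lay 75.8 kb away. That region lies inside a peak gained in P vs. D, which is among the 6 counted above. Windows of the same size around all 1912 lost peaks of P vs. D held a median of 8 lost and 6 gained peaks of that comparison, so the transporter windows held fewer lost peaks than the median window and about as many gained ones. Peaks of L vs. D had a median of 1 lost and 0 gained in these windows, and windows around the 273 lost peaks of L vs. D held a median of 2 lost and 0 gained.

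**Figure D5:**
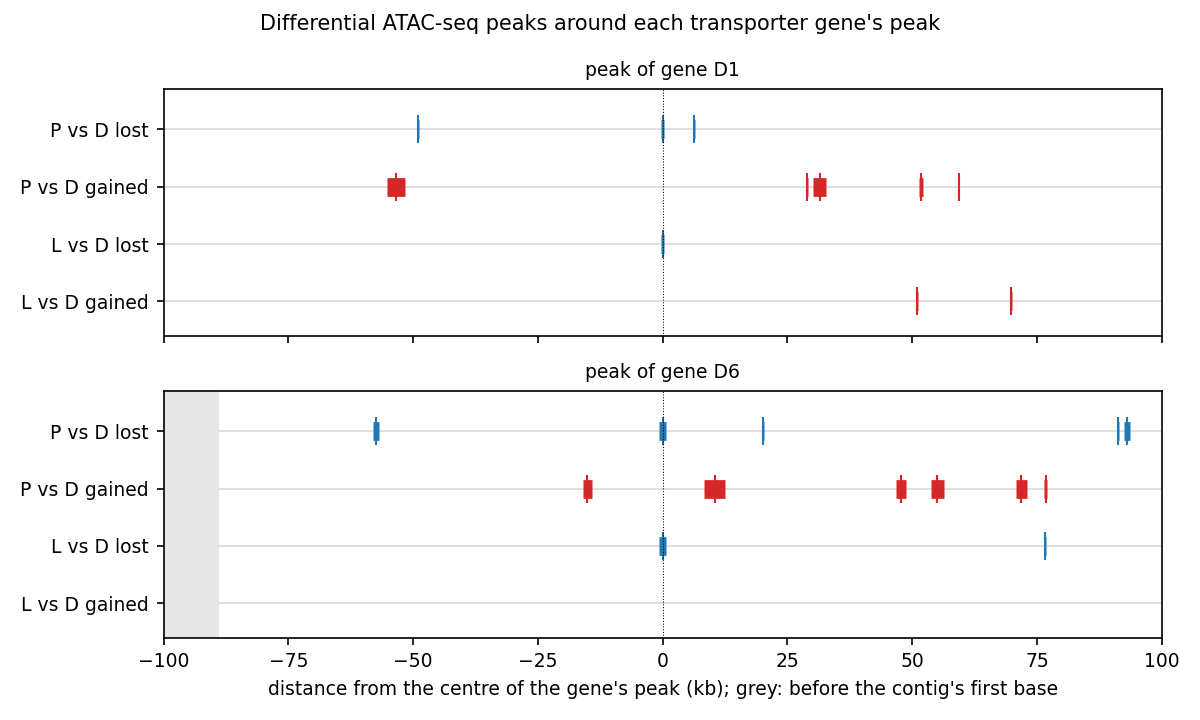
Differential ATAC-seq peaks of the 4 lists within 100 kb of the centre of the peak assigned to D1 (upper panel) and D6 (lower panel), with lost peaks in blue, gained peaks in red and the distance from the peak centre in kb on the horizontal axis. The assigned peaks at 0 kb are in both lost lists, and in P vs. D 5 gained peaks lie in the window of D1 and 6 in that of D6.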

How the data were processed

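RNA-seq and ATAC-seq of S. latifolia SP-C were analysed from deposited tables. The authors trimmed reads with cutadapt, aligned RNA-seq reads with STAR and made the deposited raw counts per gene with HTSeq 0.6.1, with a strand setting that the sources do not state, so that reads of overlapping or antisense genes may be mixed. The authors also deposited a signal (counts divided by size factors), log2 fold changes and p-values of their own comparisons, which were not used. In the deposited peak lists each region has a score, made by the authors with BWA 0.7.10 and MACS2 2.1.1 on merged samples of each group.

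Each table holds 11161 genes, and the D counts are identical in both. Counts were filtered with filterByExpr, scaled by TMM and tested with edgeR 4.0.16 (quasi-likelihood), P vs. D and L vs. D on 6 libraries each and P vs. L on all 9, with Benjamini-Hochberg adjustment. The SE is the unshrunken log2 fold change divided by the root of F. Library totals set the counting error, and n = 3 sets the replicate error. DESeq2 1.42.0 in R 4.3.3 was the other tool. Further alternatives were size factors or library totals as scaling, no or a stricter filter (10 CPM in 3 libraries), each library left out, a replicate block, other libraries in the fit, and, among peaks, a score minimum of 5, a window of 50 kb and a reciprocal overlap of 50%. CPM in the text use 1 TMM scaling of all 9 libraries. Peaks were handled in Python 3.11.15 with pandas 2.3.3 and drawn with matplotlib 3.10.9. The edgeR procedure was tested on simulated data.

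Deviations from the group means correlated positively between same-numbered P and L libraries (r = 0.157, 0.552 and 0.405). They also did so for primordia replicate 3 with light replicate 1 (0.410) and primordia replicate 1 with light replicate 3 (0.110). The remaining pairings of unlike numbers ran from -0.524 to -0.184. Whether the numbers pair P with L is therefore not known, and the block was run as an alternative only. The replicates of a group differed by far more than counting noise. The members and lists were chosen with earlier results of these data known. Named genes are D1, D6, listed genes described by transport, U10, GAPDH, the 2 listed genes most like each transporter and the single most similar gene of all. Gene IDs of the reference table at hand belong to another strain and matched 0 of the 2 transporters, so no sequences are shown.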

Additional observations from a re-analysis of the deposited data

How the results depend on the processing

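Each library left out in turn gave log2 fold changes from -4.98 to -3.48 for D1 and from -3.89 to -2.98 for D6 in P vs. D, from -1.96 to -1.02 and from -2.42 to 0.13 in L vs. D, and from -3.62 to -1.99 and from -3.65 to -1.20 in P vs. L. D6 in L vs. D turned positive without dark replicate 1 (0.13) and without light replicate 2 (0.02). The number of genes called then ran from 73 to 727 in P vs. D (73 without dark replicate 1, 727 without primordia replicate 2), from 0 to 15 in L vs. D (15 without light replicate 1) and from 0 to 52 in P vs. L (52 without primordia replicate 2). With the replicate block, D1 (-4.43, adjusted p = 0.118 from edgeR) and D6 (-3.45, adjusted p = 0.0640) lost their calls in P vs. D, where 89 genes were called instead of 350, and 1 gene was called in P vs. L. The same-numbered libraries did not deviate together in P vs. D (r = -0.020, -0.397 and -0.391) or in L vs. D (r = 0.436, -0.360 and -0.301), so no pairing is read from the numbers there either. The block in the P and L libraries only, added after the data were seen, called 0 genes by edgeR, as did these libraries without it, and 331 by DESeq2, among them D1 (-2.89). All 9 libraries in a single fit ended the call of D6 in P vs. D (-3.63, adjusted p = 0.0745 from edgeR) and called 2 genes in L vs. D. DESeq2 called 1187 genes in P vs. D, 423 in the L vs. D fit and 322 in P vs. L, including D1 (-2.59) and D6 (-3.12) there. Library totals as scaling called 3 genes in the L vs. D fit and 8 in P vs. L, and moved the median log2 fold change of all genes from 0.02 to 0.23 in L vs. D and from 0.07 to 0.17 in P vs. D. No filter called 2 genes in L vs. D, and the stricter filter called 3 there and 2 in P vs. L. The most similar gene of each transporter kept its rank under a pseudocount of 5 CPM and without a minimum level. Peaks were counted by list, so a region in several lists, such as the D1 or D6 peak, was counted in each. By this count, 6 of 11 entries within 100 kb of the D1 peak had a score of at least 5. The D1 peak itself did not reach it. A window of 50 kb held 6 entries around D1 and 6 instead of 13 around D6. The causes of these shifts were not tested.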
